A study of Mus musculus with 12 samples.

Results

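Adipogenic medium was compared with regular medium in M2-10B4 cells, an established stromal cell line from mouse bone marrow, to show which genes differed after 9 days of culture. The comparison used 6 libraries, 3 of control cells and 3 of cells in adipogenic medium (ADM), taken from 12 libraries in 4 groups. A gene was a member of the comparison where its mean reached 1 FPKM (fragments per kilobase of transcript, scaled to the mapped fragments of the library, the authors' unit) in either group. This held for 11074 of the 11849 genes deposited for this pair and of the 12028 genes that occur anywhere in the series. Adjusted p means a Benjamini-Hochberg value over all 11074 genes from limma, and "rose", "fell" and "changed" are used of genes with an adjusted p below 0.05. Differences are ADM minus control on the log2(FPKM + 1) scale, given ± SE, which understates the fold of genes near 0.

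Both groups came from the same line, which was derived from C57BL/6J X C3H/HeJ mice, so strain and genotype were shared. The adipogenic medium was phenol red-free RPMI with 10% charcoal-stripped serum, glutamine at 2 mM and Hepes at 25 mM, and its inducers were insulin at 2 µg/mL, dexamethasone at 1 µM and rosiglitazone at 2 µM. It was renewed every 3 days. What the regular medium contained is not given in the labels. Each difference between the media enters the comparison, serum included, and the inducers cannot be told apart. The remaining 2 groups received dihydrotestosterone (DHT), an androgen, at 10 nM in either medium, and serve below to look at the effect of the medium in other libraries. All libraries come from this 1 line in culture, and the series describes the replicates as biological.

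Adipogenesis is the passage of a fibroblast-like precursor to a lipid-storing fat cell. Glucocorticoids, of which dexamethasone is a synthetic form, induce the factors C/EBP beta and delta, and these switch on Pparg and Cebpa, which maintain each other and activate genes for lipid uptake, triglyceride synthesis and adipocyte hormones. Rosiglitazone binds the receptor encoded by Pparg directly, and insulin drives glucose uptake and lipid storage. In marrow, fat cells and osteoblasts arise from shared stromal progenitors, and stromal cells also make the chemokines and growth factors on which blood stem cells depend.

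The FPKM of a library summed to between 240621 and 262912 over the genes of the table, and between 10517 and 10633 genes stood above 1 FPKM. Between libraries, Pearson's r over genes (no independent replicates) was 0.989 to 0.991 within a group and 0.868 to 0.872 between the groups. The mitochondrially encoded genes held 9.34% to 9.96% of all FPKM in control and 16.3% to 17.2% in ADM. FPKM are shares of a library, so a rise in such abundant transcripts lowers the values of others, and the amount of messenger RNA per cell was not measured. In such bulk samples, fewer cells of a type and less RNA per cell cannot be told apart.

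Marker genes were checked against the stromal label of the line. Cxcl12, Pdgfra, Pdgfrb, Vcam1, Kitl, Col1a1 and Prrx1 all stood above 20 FPKM in each group mean. In the wider list of 31 marrow stromal and niche genes, 23 were among the genes of the table and 20 could be tested. Of 21 macrophage and haematopoietic genes 7 were among the genes of the table, and they held 0.00709% to 0.00757% of FPKM in control and 0.00604% to 0.00698% in ADM. The leukocyte genes Ptprc, Adgre1, Csf1r and Spi1 and the endothelial genes Pecam1, Cdh5 and Kdr were not among them, nor were the muscle regulators Myod1 and Myog. Counting the members that could be tested, 1 macrophage gene rose and 1 fell of 6, 1 endothelial gene rose and 1 fell of 2, and 2 skeletal muscle genes rose and 4 fell of 8. Over all tested genes 61.6% changed, and these lists are too short to compare with that share. Of the osteoblast genes, Sp7 and Alpl were not among the genes of the table, and the bone protein gene Bglap was among the tested genes and lower in ADM, as given below. The cartilage markers Col2a1 and Sox9 were tested and are given below. The marker sets also held Cd68, Acta1, Ibsp and Acan, whose levels are not given here.

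In all, 6825 genes changed, which is 61.6% of those tested. Of these 3136 rose, 28.3% of the tested genes, and 3689 fell, 33.3%. Counts of list members below are to be read against these shares. At 1.5-fold or more, 1520 rose (13.7%) and 1590 fell (14.4%). The median difference over all tested genes was -0.026. The libraries of the groups did not overlap at 7483 genes, 67.6% of those tested. Large changes were more often rises: 766 rises and 684 falls reached a log2 difference of 1, 90 and 12 reached 3, and 18 and 1 reached 5.

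**Figure D1:**
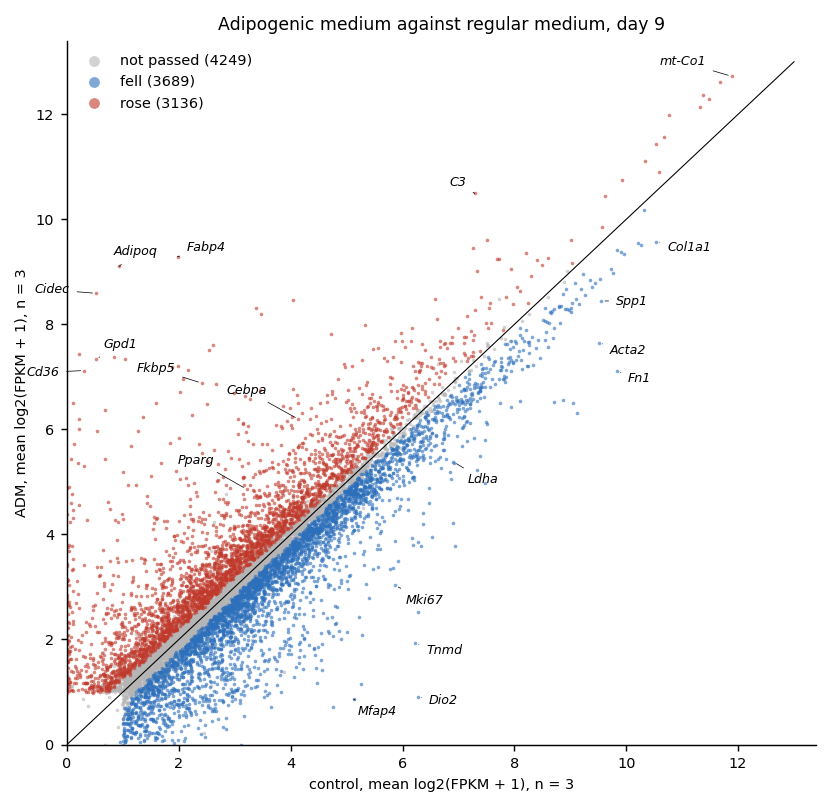
Mean log2(FPKM + 1) of 3 control libraries (horizontal axis) against that of 3 ADM libraries (vertical axis) for 11074 genes, with genes that rose in red, fell in blue and did not pass in grey; the line marks equal values and the straight edges near 1 come from the minimum of 1 FPKM. The points far above the line at the left include fat cell genes near 0 in control, such as Adipoq and Cidec, beside other genes. Dio2 and Tnmd lie farthest below it.

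Some genes went from nearly nothing to high levels. In 37 genes every control library was under 1 FPKM and every ADM library over 10, and in 4 genes, Crabp2, Dio2, Tgfbi and Mfap4, the reverse held. Adipoq (ENSMUSG00000022878.5, chromosome 16, 23146536 to 23158028), which encodes the hormone adiponectin and passed 1 FPKM in 2 control libraries, had the largest rise of the tested genes, with 1.01, 0.728 and 1.01 FPKM in control and 546, 530.3 and 573 in ADM (8.17 ± 0.069, adjusted p = 1.2e-09). Cidec (ENSMUSG00000030278.11, chromosome 6, 113424634 to 113435760), whose protein fuses lipid droplets, stood at 0.413, 0.405 and 0.494 FPKM in control and 369, 378 and 408 in ADM (8.07 ± 0.055, adjusted p = 4.89e-10). In both genes the ADM libraries lay far above the highest control library, but the largest changes were named only among genes without overlap.

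The genes of the 37 that follow were chosen after their values were seen. Mc2r, the receptor for the pituitary hormone ACTH, was listed at 0, 0.072 and 0 FPKM in control and stood at 27.5, 28.2 and 31.1 FPKM in ADM. The short-chain fatty acid receptor gene Ffar2 had 0, 0.0371 and 0.0379 FPKM in control and 12.7, 12.7 and 13.1 in ADM. Adig, the small adipocyte protein adipogenin, was listed at 0 in all 3 control libraries and stood at 26.1, 28.9 and 30.3 FPKM in ADM. Their libraries separate by medium because the 37 genes were chosen so. The 37 genes also include Gpt, an alanine aminotransferase, and Fgf10, a growth factor of fat precursors, at 0.71, 0.97 and 0.927 FPKM in control and 11.7, 10.4 and 10.1 in ADM.

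The transcription factors of fat cell formation were mostly higher in ADM. Of the adipogenic transcription factors, 20 members rose and 8 fell, while 5 of 33 missed the threshold, against 28.3% and 33.3% of all tested genes, with a median log2 difference of 0.61 against -0.026 for all. Pparg (ENSMUSG00000000440.12, chromosome 6, 115360951 to 115490399), the receptor that rosiglitazone binds, was already on in control, at 8.98, 7.55 and 8.32 FPKM, and stood at 28.8, 26.3 and 29.1 in ADM (1.65 ± 0.073, adjusted p = 1.2e-06). Cebpa (ENSMUSG00000034957.10, chromosome 7, 35119293 to 35121928) had 8.62, 22.7 and 22.997 FPKM in control and 86.8, 65.7 and 65.9 in ADM (2.05 ± 0.34, adjusted p = 0.00137). The groups did not overlap in either gene, but control replicate 1 of Cebpa was far under its fellows.

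Other members of this list moved in both directions. Cebpd, an immediate target of glucocorticoids, stood at 8.50, 8.18 and 8.51 FPKM in control and at 48.1, 56.6 and 58.0 in ADM (2.55 ± 0.075), and Cebpb rose by 0.79 ± 0.072. Zbtb16, a zinc finger repressor induced by glucocorticoids, stood at 0, 0.0285 and 0.03 FPKM in control and at 13.43, 11.502 and 10.8 in ADM. Nr1h3, the oxysterol receptor LXR alpha, rose by 2.70 ± 0.13 and Srebf1, the regulator of fatty acid synthesis, by 1.05 ± 0.059. Klf4, known as an early activator of fat cell formation, fell (-1.55 ± 0.064), as did Id2 and Id3 (-0.84 ± 0.071 and -0.75 ± 0.074). The list also holds factors known to hold back fat cell formation, of which Ddit3 fell (-1.02 ± 0.04) and Gata2 and Klf2 did not pass, with differences of -0.06 ± 0.12 and 0.04 ± 0.084.

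**Figure D2:**
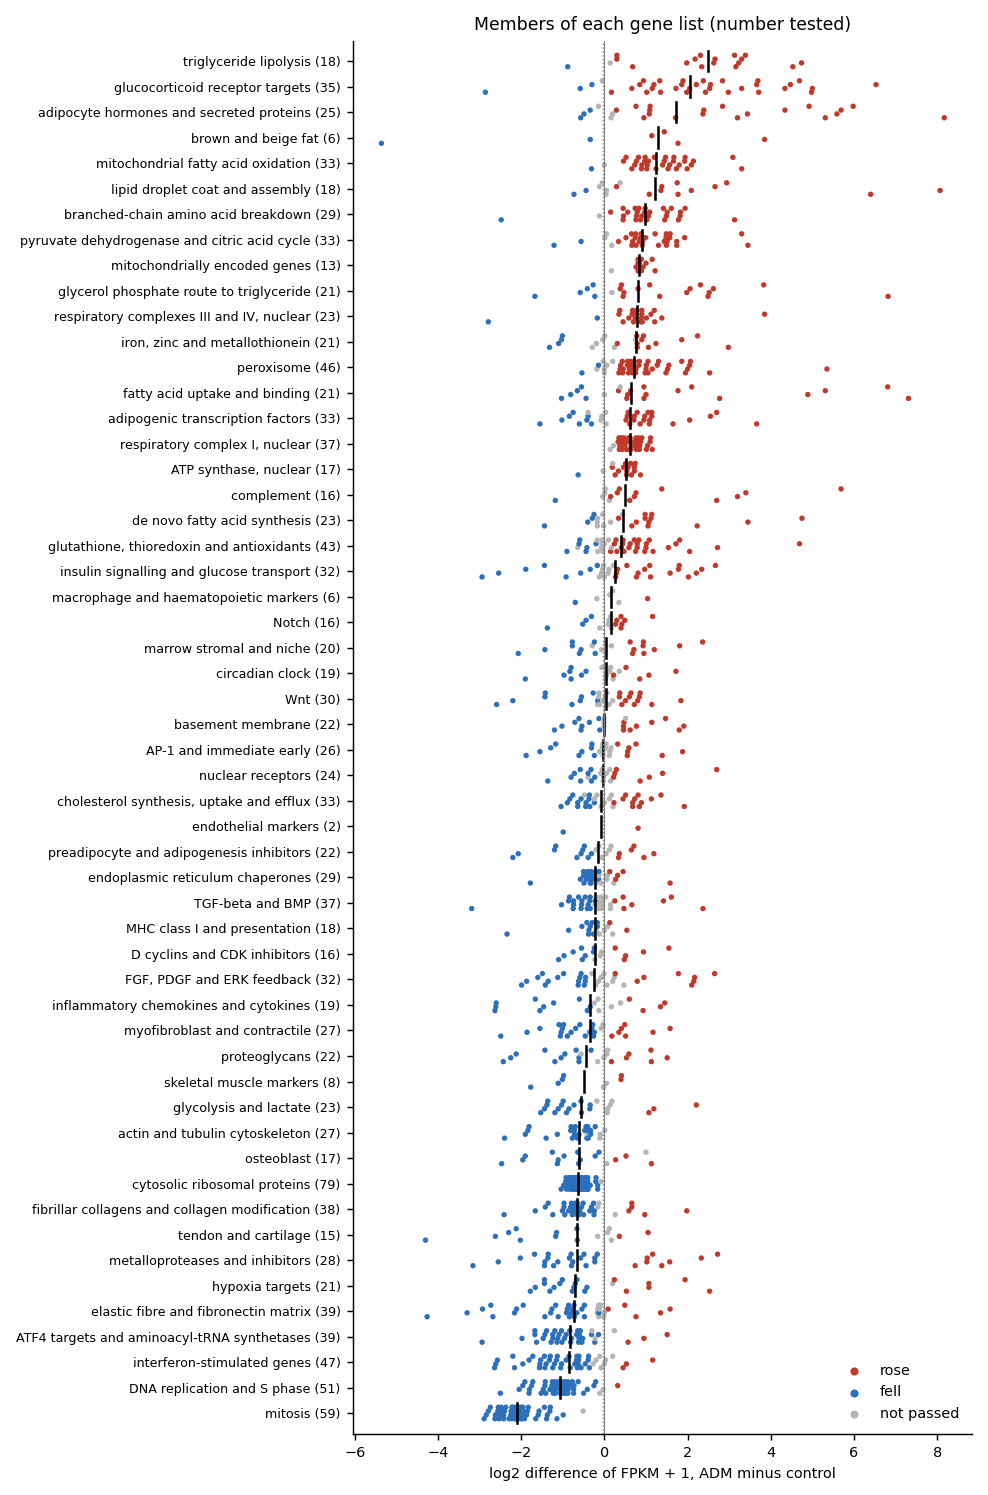
Each point is a gene of a list, placed by its log2 difference of FPKM + 1 (ADM minus control) and coloured by its call; black bars mark list medians and the dotted line the median of all tested genes. Triglyceride lipolysis and glucocorticoid targets have medians of 2.49 and 2.05, and mitosis lies at the other end at -2.11.

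Fat enters a cell after lipoprotein lipase releases it from lipoproteins, and is then bound and activated. In the list of fatty acid uptake and binding, 14 members rose and 5 fell, while 2 of 21 missed the threshold. Lpl, the lipase, stood at 2.88, 2.58 and 2.52 FPKM in control and at 141, 144 and 148 in ADM (5.31 ± 0.054, adjusted p = 2.07e-09). Cd36, a fatty acid translocase, had 0.256, 0.316 and 0.155 FPKM in control and 139.5, 133 and 142 in ADM (6.81 ± 0.065), and the carrier gene Fabp4 went from 2.78, 3.07 and 2.97 to 620.1, 624 and 628 (7.31 ± 0.041). No library of a group came near the other group in these 3 genes, which were among the largest rises named only without overlap. Acsl1, which activates fatty acids for storage, rose by 4.89 ± 0.22, the transporter gene Slc27a1 by 2.77 ± 0.075, and Dbi, the acyl-CoA binding protein, by 1.77 ± 0.043. The members that fell include the activating enzymes Acsl3 (-1.03 ± 0.067) and Acsl4 (-0.81 ± 0.062) and the receptor gene Lrp1 (-0.65 ± 0.036).

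For de novo synthesis of fatty acids, 12 members rose and 4 fell, while 7 of 23 missed the threshold. The 69.6% that changed is near the 61.6% of all tested genes. Fasn, the fatty acid synthase, stood at 18.3, 17.2 and 16.1 FPKM in control and 34.1, 32.7 and 37.9 in ADM (0.98 ± 0.071), and the carboxylase gene Acaca rose by 0.98 ± 0.051. The largest rises of the list were those of Thrsp (4.75 ± 0.072), a lipogenic regulator, and Pcx (3.45 ± 0.062), the pyruvate carboxylase that refills the citric acid cycle. Acly, which makes cytosolic acetyl-CoA, and the desaturase gene Scd1 did not pass, at -0.04 ± 0.038 and -0.17 ± 0.074, and the desaturase gene Fads2 fell (-1.44 ± 0.071).

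Genes for enzymes of each step of esterification to triglyceride were higher. Gpd1, which makes glycerol phosphate, had 0.52, 0.285 and 0.492 FPKM in control and 147, 155 and 181 in ADM (6.82 ± 0.097). The acyltransferase genes Gpat3, Agpat2 and Dgat2, for the first, the second and the last acyl chain, rose by 2.52 ± 0.09, 3.83 ± 0.3 and 2.49 ± 0.096, and the phosphatase gene Lpin1 by 1.98 ± 0.063. In that list 15 members rose and 5 fell, while 1 of 21 missed the threshold. Agpat2 stood at 2.61, 3.18 and 3.29 FPKM in control and 97.7, 40.9 and 44.2 in ADM, again with no overlap. Pck1, the cytosolic carboxykinase that feeds glycerol synthesis, was near 0 in control (0, 0.0652 and 0 FPKM) and stood at 5.43, 4.81 and 5.62 FPKM in ADM.

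Genes of the lipid droplet and of lipolysis were mostly higher. For droplet coat and assembly, 11 members rose and 2 fell, while 5 of 18 missed the threshold, and for lipolysis, 16 members rose and 1 fell, while 1 of 18 missed the threshold, with a median of 2.49, the highest of the 54 lists. Of the droplet genes 72.2% changed, against 61.6% of all tested genes. Plin1, the droplet coat of mature fat cells, had 0.0973, 0.0643 and 0.0571 FPKM in control and 86.3, 89.5 and 93.7 in ADM (6.403 ± 0.057), while Plin3, a coat protein of most cells, rose by 0.29 ± 0.051. Pnpla2 (ENSMUSG00000025509.15, chromosome 7, 141455198 to 141460743), which removes the first fatty acid from triglyceride, stood at 11.002, 9.83 and 9.31 FPKM in control and at 272, 294 and 315 in ADM (4.74 ± 0.074, adjusted p = 1.08e-08). Lipe and Mgll, the lipases of the following steps, rose by 4.53 ± 0.074 and 3.30 ± 0.25. Brakes and activators of lipolysis were both among the genes higher in ADM: G0s2, an inhibitor of the first lipase, at 2.66 ± 0.083, its activator gene Abhd5 at 2.18 ± 0.061 and the inhibiting adenosine receptor gene Adora1, which was listed at 0 in each control library and stood at 8.64, 12.3 and 8.01 FPKM in ADM. Lipa, the acid lipase of the lysosome, fell (-0.88 ± 0.26). The direct repeat bound by PPAR gamma (AGGTCA, a free base, then AGGNCA), searched on both strands, was in 0 of 21 promoter windows of 15 of the 18 droplet genes and in 0.137% of all windows, which says only that these letters are not in those windows.

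Mitochondria and peroxisomes oxidise fatty acids, and most of their genes were higher in ADM. Of the mitochondrial fatty acid oxidation genes 31 members rose and 1 fell, while 1 of 33 missed the threshold, and of the peroxisome genes 38 members rose and 2 fell, while 6 of 46 missed the threshold. Acadm, the dehydrogenase for medium chains, stood at 24.2, 26.5 and 25.9 FPKM in control and at 221, 227 and 227 in ADM (3.09 ± 0.044, adjusted p = 8.2e-09). Cpt1a, the gate of fatty acid entry, fell slightly (-0.31 ± 0.059), while Cpt2 on the inner side rose by 2.14 ± 0.074. Ephx2, the soluble epoxide hydrolase, had 0, 0 and 0.172 FPKM in control and 41.4, 41.6 and 43.1 in ADM. Cat, the peroxide-splitting catalase, rose by 2.05 ± 0.055, and the peroxisome biogenesis genes Pex16 and Pex19 by 2.07 ± 0.1 and 1.27 ± 0.05.

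Genes of the citric acid cycle and the respiratory chain were also mostly higher. Of pyruvate dehydrogenase and citric acid cycle genes 28 members rose and 2 fell, while 3 of 33 missed the threshold. In the nuclear genes of complex I 34 members rose and 0 fell, while 3 of 37 missed the threshold, in those of complexes III and IV 21 members rose and 2 fell, while 0 of 23 missed the threshold, and in those of ATP synthase 14 members rose and 1 fell, while 2 of 17 missed the threshold. The medians of these lists, 0.61 for complex I and 0.53 for ATP synthase, lay below that of fatty acid oxidation, 1.24, a difference between lists that was not tested. Idh3a, a subunit of isocitrate dehydrogenase, went from 19.5, 19.7 and 18.8 FPKM to 56.1, 58.4 and 63.7 (1.57 ± 0.056), and Ndufa10 of complex I from 33.96, 33.9 and 37.6 to 76.8, 78.8 and 82.3 (1.15 ± 0.054). Atpif1, which inhibits ATP synthase, fell (-0.63 ± 0.056).

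Mitochondrially encoded transcripts were higher as well: 12 members rose and 0 fell, while 1 of 13 missed the threshold. mt-Nd2 stood at 1827, 1666 and 1756 FPKM in control and at 4026, 4053 and 4107 in ADM (1.22 ± 0.042), and mt-Nd6, which is read from the other strand, did not pass (0.17 ± 0.098). These genes are among the most abundant of each library, and quantile normalization, which gives all libraries the same top values, left 7 of the 13 higher and 1 lower with a median of 0.13. On the scales that only rescale each library 12 rose and 0 fell.

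Transcripts for the breakdown of branched-chain amino acids, a fuel of fat cells, were mostly higher: 27 members rose and 1 fell, while 1 of 29 missed the threshold. Aldh6a1, the last dehydrogenase of valine breakdown, had 4.65, 4.50 and 3.91 FPKM in control and 45.5, 44.0 and 47.7 in ADM (3.13 ± 0.068). Bckdha and Bckdhb, subunits of the committed step, rose by 1.78 ± 0.059 and 1.61 ± 0.053. The member that fell was Bcat1, the cytosolic aminotransferase, at 13.6, 12.6 and 12.9 FPKM in control and 1.47, 1.397 and 1.66 in ADM (-2.48 ± 0.07), while its mitochondrial relative Bcat2 went from 8.03, 8.07 and 7.35 to 31.5, 32.8 and 34.1 (1.94 ± 0.057).

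Opposite directions in relatives that perform the same step occurred in other pairs, each gene with its own test and with no test of the pair. Ldha, the lactate dehydrogenase subunit of glycolytic tissue, fell from 120.4, 116 and 121 FPKM to 38.8, 40.2 and 43.4 (-1.53 ± 0.049), and Ldhb, the subunit of oxidative tissue, rose from 32.1, 31.6 and 28.0 to 139.7, 149 and 146 (2.21 ± 0.059). Pdk1, a hypoxia-induced kinase that blocks pyruvate dehydrogenase, fell (-1.21 ± 0.077) and Pdk4, the kinase induced by fasting and glucocorticoids, rose (3.30 ± 0.055). Among glucose transporters Slc2a1, the basal form, fell (-1.44 ± 0.088), and Slc2a4, the insulin-responsive form, was listed at 0 in control and stood at 2.48, 2.34 and 2.65 FPKM in ADM. The mitochondrial carboxykinase gene Pck2 fell (-1.67 ± 0.077), while the cytosolic Pck1 was higher, with the values given above. Timp3, which inhibits metalloproteases and is held in the matrix, fell (-2.55 ± 0.045), and Timp4 stood at 0, 0 and 0.0182 FPKM in control and 6.13, 5.21 and 5.64 in ADM. Other pairs moved the same way, such as Fabp4 and Fabp5, at 7.31 ± 0.041 and 2.10 ± 0.064, Gpd1 and Gpd1l, at 6.82 ± 0.097 and 0.81 ± 0.067, and Cox8a and Cox8b, at 0.76 ± 0.054 and 3.85 ± 0.14.

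**Figure D3:**
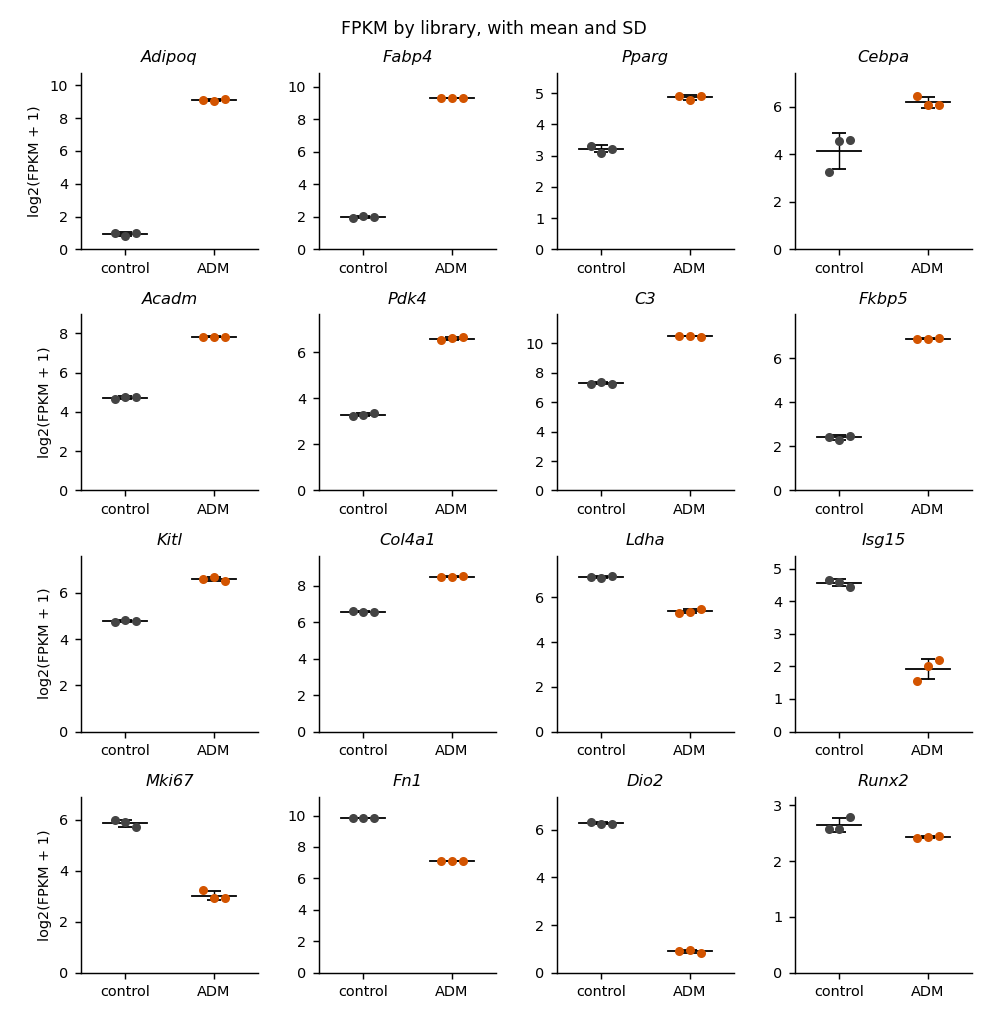
Log2(FPKM + 1) in each of the 3 control and 3 ADM libraries for 16 genes; points are libraries, horizontal lines group means and error bars SD. Control and ADM libraries are separate in each panel shown, as they are at 67.6% of all tested genes. The smallest gap is that of Runx2 and the widest spread in control that of Cebpa.

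Brown and beige fat genes gave no single direction. Ucp1, the uncoupling protein that marks brown fat, was not among the genes of the table, and neither were Ppargc1a and Elovl3. Of the 6 members tested 4 rose and 2 fell. Cox8b, a respiratory subunit of brown fat and muscle, stood at 1.06, 1.63 and 0.792 FPKM in control and at 29.9, 27.0 and 32.9 in ADM (3.85 ± 0.14), and Cidea was listed at 0 in control and stood at 2.504, 2.54 and 2.19 FPKM in ADM. Dio2 (ENSMUSG00000007682.6, chromosome 12, 90724552 to 90738438), which activates thyroid hormone and is strong in brown fat, had the largest fall of all tested genes, from 79.1, 75.7 and 74.2 FPKM to 0.893, 0.957 and 0.783 (-5.36 ± 0.058, adjusted p = 2.82e-09). Thra, the main thyroid hormone receptor gene of such cells, rose (1.397 ± 0.045).

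Hormones and other secreted proteins of fat cells were mostly higher. In that list 19 members rose and 3 fell, while 3 of 25 missed the threshold, and its share of all FPKM went from 0.349% ± 0.0086 to 1.44% ± 0.003 (mean ± SD, n = 3). C3 (ENSMUSG00000024164.15, chromosome 17, 57203970 to 57228136), the central complement component, had the largest gain in share of FPKM among nuclear genes, from 149.8, 167 and 151 FPKM to 1456, 1454 and 1409 (3.20 ± 0.048, adjusted p = 9.44e-09). Cfd, the protease adipsin, had 0.735, 0.824 and 0.289 FPKM in control and 77.3, 85.3 and 81.5 in ADM (5.69 ± 0.13), and Retn, resistin, 0.255, 0 and 0.266 and 67.7, 71.6 and 79.6. Agt, the precursor of angiotensin, rose by 4.92 ± 0.079, and Rarres2, the chemoattractant chemerin, by 2.39 ± 0.055. Lep, the satiety hormone leptin, stood at 0.0813, 0 and 0 FPKM in control and at 2.90, 2.86 and 1.54 in ADM.

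For complement genes, 11 members rose and 1 fell, while 4 of 16 missed the threshold. In all 75% changed, against 61.6% of all tested genes. The rises included those of the alternative pathway, C3, Cfb (3.40 ± 0.12), Cfd and Cfp (0.72 ± 0.24, with overlapping libraries), together with C4b (2.70 ± 0.086). Cfb, the protease of the alternative C3 convertase, stood at 0.93, 1.31 and 0.755 FPKM in control and at 20.04, 18.04 and 21.8 in ADM. C1ra, C1s1 and C1s2 of the classical pathway rose by 0.15 ± 0.035, 0.31 ± 0.042 and 0.36 ± 0.075, and the mannose-binding protease gene Masp1 fell (-1.18 ± 0.06). Hp, the plasma protein haptoglobin, stood at 15.9, 14.8 and 15.9 FPKM in control and 348, 384 and 322 in ADM, and Orm1 at 0, 0.143 and 0.14 and 48.9, 51.2 and 54.8, although Orm1 and Orm2 are near-identical and reads between them are uncertain.

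Measured as shares of FPKM, the gains outside mitochondria were led by C3, Fabp4, Igfbp7, Adipoq and Selenop. C3 went from 0.0636% to 0.552% of all FPKM. Igfbp7, an insulin-like growth factor binding protein, stood at 176, 184 and 180.4 FPKM in control and 752, 810.5 and 775 in ADM, and Selenop, the plasma carrier of selenium, at 152, 148 and 156 and 672, 716 and 710.3. The largest losses were those of Fn1, from 0.372% to 0.0523%, of Col1a1, from 0.604% to 0.291%, of the smooth muscle actin gene Acta2, from 0.296% to 0.0769%, of the ribosomal protein gene Rplp1, from 0.498% to 0.281%, and of Ptn, the growth factor pleiotrophin, from 0.225% to 0.0303%. Igfbp7, Selenop, Hp, Rplp1 and Ptn were read off this ranking after their values were seen.

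**Figure D4:**
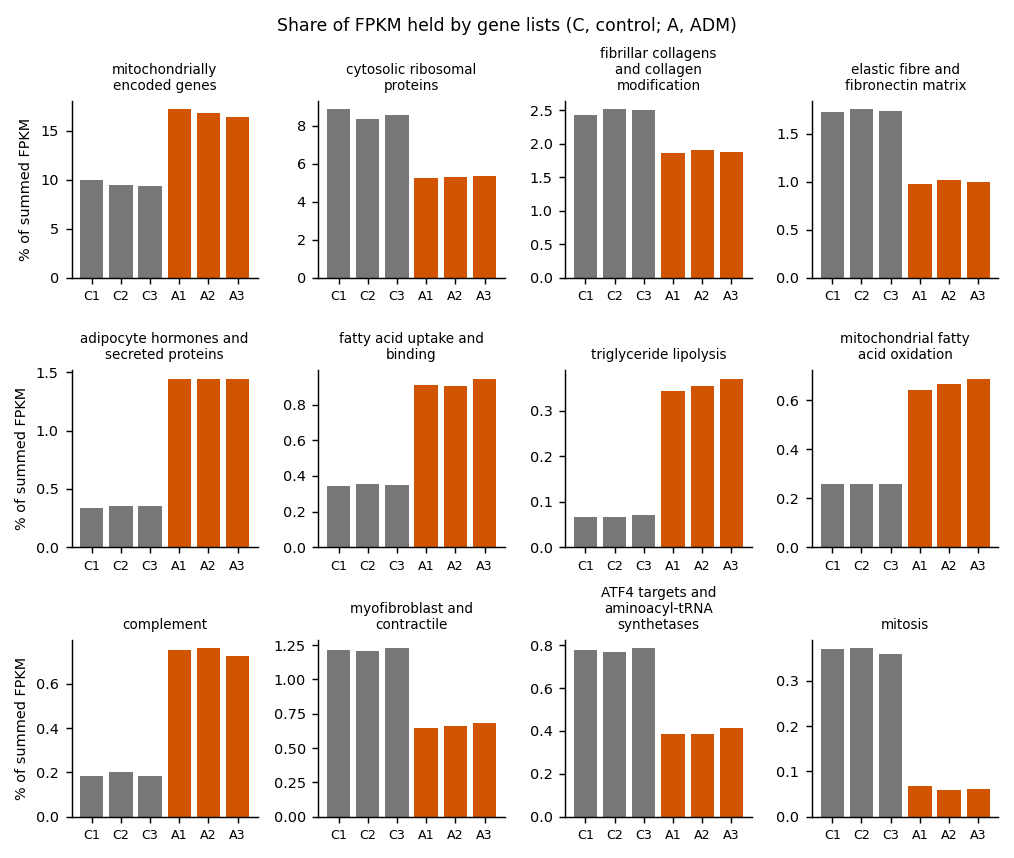
Share of all FPKM, in percent, held by 12 gene lists in each control (C1 to C3, grey) and ADM (A1 to A3, orange) library; each panel has its own axis from 0. The 12 lists are a selection. Libraries of a group lie close together, and every list shown separates by group, with mitosis genes at 0.368% in control and 0.0622% in ADM on average. Some lists that are not shown overlap between the groups. Notch genes held 0.0545% to 0.0609% in control and 0.0507% to 0.0573% in ADM. Inflammatory chemokines and cytokines held 0.089% to 0.0968% in control and 0.0903% to 0.0962% in ADM.

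Most glucocorticoid receptor targets rose, in a medium that contains dexamethasone: 31 members rose and 3 fell, while 1 of 35 missed the threshold, with a median of 2.05. The receptor, once bound by a glucocorticoid, attaches to short palindromes near its targets. Fkbp5 (ENSMUSG00000024222.16, chromosome 17, 28399095 to 28517524), whose protein restrains the receptor as a co-chaperone, stood at 4.46, 3.92 and 4.61 FPKM in control and at 116, 115 and 119 in ADM (4.47 ± 0.059, adjusted p = 7.97e-09). Tsc22d3, the anti-inflammatory factor GILZ, rose by 3.71 ± 0.056, the glutamine synthetase gene Glul by 4.998 ± 0.048 and the actin-associated gene Fam107a by 4.98 ± 0.079. Sgk1, a kinase that regulates ion transport, went from 22.5, 23.6 and 26.0 FPKM to 84.8, 93.7 and 96.3 (1.89 ± 0.07), and Per1, a clock gene under direct glucocorticoid control, from 5.81, 6.63 and 6.51 to 22.6, 22.9 and 23.5 (1.72 ± 0.06). The members that fell were the receptor gene Nr3c1 itself (-0.58 ± 0.046), the phosphatase gene Dusp1 (-0.30 ± 0.077) and the matrix gene Dpt (-2.86 ± 0.063).

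The palindrome of GNACA and TGTNC with 3 free bases between them, searched on both strands, on which it reads the same, occurred in 5 of 45 promoter windows of these genes (11.1%), of which 29 of 35 were matched. The 5 windows belong to 4 genes, since 2 of them start near each other at Fam107a and hold the same site. The share compares with 0.475% of all 32851 windows of the same length, which run from 250 bases before to 50 after a start in the RefSeq table of GRCm38.p6. A match is a description of the sequence and not of binding. The stretches from 200 to 51 bases before the start are printed for the 3 members with the largest rises that hold it there, with the palindrome in capitals, because Fam107a, Txnip and Sgk1 rose by 4.98 ± 0.079, 2.43 ± 0.1 and 1.89 ± 0.07.
Fam107a (chr14:8309830-8309979, - strand): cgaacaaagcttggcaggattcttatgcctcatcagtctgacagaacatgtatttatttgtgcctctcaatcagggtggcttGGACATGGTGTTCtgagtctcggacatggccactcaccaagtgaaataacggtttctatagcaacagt
Txnip (chr3:96557757-96557906, + strand): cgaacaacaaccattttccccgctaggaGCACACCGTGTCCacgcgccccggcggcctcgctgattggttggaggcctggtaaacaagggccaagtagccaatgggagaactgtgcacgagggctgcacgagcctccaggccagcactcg
Sgk1 (chr10:21993690-21993839, + strand): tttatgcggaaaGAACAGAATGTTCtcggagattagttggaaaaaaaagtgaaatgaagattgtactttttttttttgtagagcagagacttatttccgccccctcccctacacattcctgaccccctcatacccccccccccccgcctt

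Clock genes showed no common direction: 5 members rose and 7 fell, while 7 of 19 missed the threshold, so that 12 of 19 changed against a background of 61.6%. Per1 and Per2 rose (1.72 ± 0.06 and 0.85 ± 0.078), and Bhlhe40, a repressor of the clock, fell from 31.4, 29.9 and 32.6 FPKM to 6.64, 8.50 and 7.87 (-1.902 ± 0.086). Arntl and Clock did not pass, at -0.06 ± 0.066 and 0.15 ± 0.099. Metallothionein genes Mt1 and Mt2, which bind zinc and copper and respond to glucocorticoids, rose by 0.94 ± 0.11 and 1.86 ± 0.05. Steap4, a metal reductase, had 5.25, 5.08 and 5.31 FPKM in control and 46.9, 48.9 and 48.1 in ADM (2.98 ± 0.045), and Cp, the ferroxidase ceruloplasmin, rose by 2.24 ± 0.057, while the iron exporter gene Slc40a1 fell (-1.32 ± 0.079). For iron, zinc and metallothionein genes, 11 members rose and 4 fell, while 6 of 21 missed the threshold. The 71.4% that changed compares with 61.6% of all tested genes.

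Antioxidant enzyme genes rose more often than they fell: 26 members rose and 6 fell, while 11 of 43 missed the threshold. The 74.4% that changed compares with 61.6% of all tested genes. Mgst1, a membrane-bound glutathione transferase, stood at 1.15, 1.64 and 1.502 FPKM in control and at 58.4, 64.1 and 61.6 in ADM (4.69 ± 0.085). The peroxiredoxin genes Prdx3 and Prdx6 rose by 1.54 ± 0.066 and 1.72 ± 0.06, and the superoxide dismutase genes Sod1 and Sod2 by 0.83 ± 0.049 and 1.17 ± 0.048. G6pdx, whose enzyme supplies the reducing power for fat synthesis and for glutathione, rose by 1.08 ± 0.052. Gclc and Gclm, which make glutathione, did not pass, at -0.04 ± 0.067 and -0.16 ± 0.15.

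Insulin signalling genes were split. Of that list 16 members rose and 8 fell, while 8 of 32 missed the threshold, so that 75% changed, against 61.6% of all. The adaptor gene Irs2 rose by 1.78 ± 0.075, the regulatory subunit gene Pik3r1 by 2.21 ± 0.054, the phosphodiesterase gene Pde3b, through which insulin restrains lipolysis, by 2.34 ± 0.068, and Insr, the receptor, by 0.81 ± 0.23. Akt2 and Pik3ca did not pass (-0.02 ± 0.049 and 0.09 ± 0.13). Igf1, insulin-like growth factor, fell from 166, 175 and 159.9 FPKM to 45.6, 44.6 and 42.5 (-1.89 ± 0.047), its binding protein gene Igfbp5 from 525, 519 and 538 to 88.5, 92.0 and 89.7 (-2.54 ± 0.034), and Trib3, an Akt inhibitor that ATF4 induces, from 23.5, 20.1 and 23.6 to 1.79, 2.04 and 2.31 (-2.94 ± 0.091). No library overlapped between the groups in these 3 genes, as at 67.6% of all tested genes, and Trib3 was named among falls without overlap.

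Most glycolysis and hypoxia genes fell. Of the glycolysis and lactate genes 3 members rose and 15 fell, while 5 of 23 missed the threshold, and of the hypoxia targets 6 members rose and 14 fell, while 1 of 21 missed the threshold. Pkm, pyruvate kinase, stood at 167, 147 and 151 FPKM in control and at 54.2, 57.9 and 56.5 in ADM (-1.44 ± 0.056), and Eno1, enolase, at 146, 130.1 and 146 and 60.2, 48.9 and 53.9 (-1.36 ± 0.082). Gapdh and Pgam1 fell (-1.11 ± 0.1 and -0.99 ± 0.053), whereas Aldoa did not pass (0.14 ± 0.1). Among hypoxia targets the prolyl hydroxylase gene P4ha1, which modifies collagen, fell (-1.66 ± 0.045) and the oxidoreductase gene Ero1l fell (-1.78 ± 0.052). Among the exceptions were Ddit4 (2.53 ± 0.055), which is also a glucocorticoid target, Egln3 (1.94 ± 0.073) and Bnip3 (1.07 ± 0.041), which rose.

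Genes of amino acid supply and of the ribosome were mostly lower. Of ATF4 targets and aminoacyl-tRNA synthetases 3 members rose and 33 fell, while 3 of 39 missed the threshold. ATF4 is the factor that cells use when amino acids are short, and the synthetases load amino acids onto transfer RNA. Asns, asparagine synthetase, stood at 40.3, 31.2 and 39.1 FPKM in control and at 14.3, 12.8 and 13.1 in ADM (-1.39 ± 0.1), Shmt2, the mitochondrial serine enzyme, at 67.7, 63.5 and 72.1 and 20.7, 20.8 and 21.95 (-1.63 ± 0.056), and the transporter gene Slc7a5 at 56.8, 53.1 and 62.1 and 12.5, 13.3 and 15.6 (-1.98 ± 0.089). Atf4 itself fell (-0.64 ± 0.051), and the synthetase genes Cars, Sars and Iars fell (-1.47 ± 0.05, -1.43 ± 0.061 and -1.28 ± 0.048). Cytosolic ribosomal proteins fell almost without exception: 0 members rose and 78 fell, while 1 of 79 missed the threshold, with a median of -0.64. Their share of FPKM went from 8.6% ± 0.25 to 5.3% ± 0.066 (mean ± SD, n = 3), while that of mitochondrially encoded genes was higher, as given above. After rescaling without the mitochondrially encoded genes, 78 ribosomal protein genes still passed as lower, with a median of -0.60. For chaperones of the endoplasmic reticulum, 5 members rose and 18 fell, while 6 of 29 missed the threshold, with a median of -0.22.

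Cell division genes fell almost without exception. In mitosis 0 members rose and 58 fell, while 1 of 59 missed the threshold, and in DNA replication and S phase 1 member rose and 48 fell, while 2 of 51 missed the threshold, against 33.3% of all tested genes that fell. The mitosis median was -2.11 and that of replication -1.06. Mki67 (ENSMUSG00000031004.8, chromosome 7, 135689784 to 135716361), whose protein coats mitotic chromosomes, stood at 62.0, 59.3 and 51.1 FPKM in control and at 8.41, 6.66 and 6.54 in ADM (-2.84 ± 0.11, adjusted p = 5.47e-07). Ccnb2, a mitotic cyclin, had 27.4, 28.9 and 29.9 FPKM in control and 3.55, 2.64 and 2.87 in ADM (-2.89 ± 0.09), and Top2a, the topoisomerase that separates chromosomes, 37.0, 37.0 and 35.02 and 4.93, 3.89 and 4.42 (-2.79 ± 0.077). All control libraries lay well above all ADM libraries in Mki67, Ccnb2 and Top2a, which were named among falls without overlap. The ADM levels were not 0. Uhrf1, which maintains DNA methylation, fell (-2.496 ± 0.061), as did the helicase subunit gene Mcm2 (-1.96 ± 0.077) and the ribonucleotide reductase gene Rrm2 (-1.80 ± 0.079). The members that did not fall were Gins4, which rose (0.32 ± 0.056), and Orc6, Rfc1 and Pttg1, which did not pass (-0.11 ± 0.055, -0.03 ± 0.05 and -0.51 ± 0.2).

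Regulators of the entry into the cycle were divided: 5 members rose and 8 fell, while 3 of 16 missed the threshold. Cdkn1a, the inhibitor p21, rose from 22.4, 19.7 and 21.2 FPKM to 59.6, 63.8 and 67.7 (1.55 ± 0.065), while Cdkn1b, the inhibitor p27, did not pass (-0.07 ± 0.048). Ccnd1, a cyclin of the start of the cycle, and its kinase gene Cdk4 fell (-0.75 ± 0.062 and -0.97 ± 0.058). Ccnd2 and Ccnd3 rose (0.51 ± 0.043 and 0.94 ± 0.29), Ccnd3 with overlapping libraries and a call that ended without control replicate 2, ADM replicate 1 or ADM replicate 2 (adjusted p 0.0763 to 0.079).

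Promoters of mitotic genes are known for a pair of elements, the CHR (TTTGAA) to which repressive and activating complexes of the cycle attach, and CCAAT boxes bound by NF-Y. Searched on both strands, TTTGAA occurred in 36 of 51 windows of the mitosis genes (70.6%, 34 genes), of which 49 of 59 were matched, against 17.9% of all windows, and CCAAT in 38 (74.5%, 36 genes), against 37.4%. Both occurred in 32 windows (62.7%), against 6.95% of all. The 150 bases before the start of the 3 genes with the largest falls that hold both there are printed with these elements in capitals, in either orientation (TTCAAA and ATTGG on the other strand). They belong to Mki67, Top2a and Cdc20, with differences of -2.84 ± 0.11, -2.79 ± 0.077 and -2.63 ± 0.066.
Mki67 (chr7:135716380-135716529, - strand): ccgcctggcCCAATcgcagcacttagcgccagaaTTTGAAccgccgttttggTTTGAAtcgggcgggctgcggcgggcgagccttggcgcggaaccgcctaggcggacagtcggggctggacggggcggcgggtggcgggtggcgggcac
Top2a (chr11:99024190-99024339, - strand): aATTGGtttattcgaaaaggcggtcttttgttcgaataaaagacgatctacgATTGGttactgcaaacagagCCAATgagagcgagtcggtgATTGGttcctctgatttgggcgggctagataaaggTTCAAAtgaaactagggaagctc
Cdc20 (chr4:118437344-118437493, - strand): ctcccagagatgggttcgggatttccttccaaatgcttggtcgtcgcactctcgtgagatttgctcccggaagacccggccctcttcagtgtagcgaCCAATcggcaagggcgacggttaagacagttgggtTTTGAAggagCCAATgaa

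Interferon-stimulated genes, which make up the antiviral state, were mostly lower in ADM: 3 members rose and 37 fell, while 7 of 47 missed the threshold, with a median of -0.85. Isg15 (ENSMUSG00000035692.6, chromosome 4, 156199424 to 156200818), a ubiquitin-like modifier, stood at 24.2, 22.9 and 20.8 FPKM in control and at 1.96, 3.04 and 3.54 in ADM (-2.64 ± 0.15, adjusted p = 4.83e-06). Ifit1, which binds viral RNA, had 26.5, 26.1 and 21.9 FPKM in control and 2.74, 2.73 and 4.92 in ADM (-2.57 ± 0.18), and Ifitm3, which blocks viral entry, 288, 264 and 264 and 92.3, 87.2 and 95.8 (-1.56 ± 0.052). Ifit3 fell too (-2.61 ± 0.11), with Ifit3b as a near-identical copy among which reads are uncertain. The factor genes Irf7 and Irf9 fell (-0.62 ± 0.078 and -0.92 ± 0.076). Samhd1, a nucleotide hydrolase, and Ifi27 rose (1.16 ± 0.049 and 0.45 ± 0.063).

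The core of the interferon response element, GAAA repeated after 2 free bases and searched on both strands, occurred in 19 of 42 windows of these genes (45.2%, 18 genes), of which 37 of 47 were matched, against 3.44% of all windows. It is shown in capitals, in either orientation, in the 150 bases before the start of the 3 members with the largest falls that hold it there, Isg15, Ifit3 and Ifit1. In Isg15 overlapping copies form a single run.
Isg15 (chr4:156200819-156200968, - strand): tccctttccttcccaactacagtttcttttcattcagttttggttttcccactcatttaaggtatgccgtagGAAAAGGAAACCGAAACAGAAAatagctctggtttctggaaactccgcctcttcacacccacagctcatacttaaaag
Ifit3 (chr19:34583379-34583528, + strand): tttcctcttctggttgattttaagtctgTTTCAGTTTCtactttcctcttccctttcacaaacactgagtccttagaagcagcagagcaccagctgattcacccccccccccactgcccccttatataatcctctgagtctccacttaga
Ifit1 (chr19:34640739-34640888, + strand): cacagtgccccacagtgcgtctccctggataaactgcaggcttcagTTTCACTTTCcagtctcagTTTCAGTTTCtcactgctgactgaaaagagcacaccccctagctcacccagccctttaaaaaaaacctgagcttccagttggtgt

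Genes of antigen presentation and inflammation were more often lower than higher. Of the MHC class I and presentation genes 2 members rose and 11 fell, while 5 of 18 missed the threshold, with a median of -0.23, and B2m, the light chain of class I, went from 475, 452 and 474 FPKM to 379, 365 and 403 (-0.29 ± 0.046). Cd74, the invariant chain of class II, had 6.51, 5.80 and 6.28 FPKM in control and 0.418, 0.508 and 0.346 in ADM (-2.34 ± 0.08). Of chemokines and cytokines 4 members rose and 10 fell, while 5 of 19 missed the threshold. The shares changed were 72.2% for the presentation genes and 73.7% for chemokines and cytokines, against 61.6% of all tested genes. Ccl2, which attracts monocytes, stood at 14.8, 16.5 and 19.4 FPKM in control and at 1.45, 2.37 and 2.04 in ADM (-2.604 ± 0.14), and Ptgs2, the inducible cyclooxygenase, at 7.95, 7.84 and 8.07 and 0.502, 0.369 and 0.525 (-2.61 ± 0.073). Il33, an alarm cytokine, fell (-2.63 ± 0.13). The inhibitor genes Nfkbia and Il1rn rose (1.351 ± 0.047 and 1.45 ± 0.12), and so did Vcam1 (0.93 ± 0.041).

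Genes of the fibrillar extracellular matrix mostly fell. Of the fibrillar collagens and their modifying enzymes 5 members rose and 30 fell, while 3 of 38 missed the threshold, and of the elastic fibre and fibronectin matrix 5 members rose and 26 fell, while 8 of 39 missed the threshold. Fn1 (ENSMUSG00000026193.15, chromosome 1, 71585520 to 71653200), fibronectin, stood at 929, 911 and 899 FPKM in control and at 136, 136 and 137 in ADM (-2.73 ± 0.031, adjusted p = 3.46e-09), and Col1a1, the main chain of type I collagen, at 1468, 1478 and 1505 and 732, 777 and 768 (-0.97 ± 0.036). Col8a1, Col5a2 and Col3a1 fell (-2.41 ± 0.052, -1.349 ± 0.036 and -0.79 ± 0.032). The collagen VI chains rose together, Col6a1 by 0.59 ± 0.036, Col6a2 by 0.66 ± 0.037 and Col6a3 by 0.97 ± 0.031, as did Col12a1 by 1.98 ± 0.059 and the crosslinking enzyme gene Lox by 0.66 ± 0.031.

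Basement membrane genes were divided: 9 members rose and 9 fell, while 4 of 22 missed the threshold. Fat cells each lie in a basement membrane, built on collagen IV and laminin. Col4a1 (ENSMUSG00000031502.11, chromosome 8, 11198423 to 11312826) stood at 97.2, 94.5 and 92.8 FPKM in control and at 352, 356 and 367 in ADM (1.91 ± 0.036), and Col4a2 rose by 1.47 ± 0.035. The linker genes Nid1 and Nid2 rose by 0.77 ± 0.034 and 0.47 ± 0.059. Among laminins Lamb1 rose by 0.62 ± 0.041 while Lamb2 fell (-0.56 ± 0.047), and Lama4, the alpha chain of fat and vessels, did not pass, at -0.01 ± 0.05, a value whose sign turned with the scaling. Col15a1 and Col18a1 fell (-1.02 ± 0.11 and -1.201 ± 0.08).

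Small proteoglycans and matrix proteases also parted by member. Dcn, Lum and Fmod, which regulate fibril width, fell (-2.43 ± 0.063, -2.25 ± 0.1 and -2.12 ± 0.088), and Ogn, Omd and Prelp of the same family rose (1.51 ± 0.065, 1.13 ± 0.064 and 1.116 ± 0.042), while Bgn and Aspn did not pass (0.08 ± 0.048 and 0.06 ± 0.053). Ogn stood at 217, 224 and 195 FPKM in control and at 638, 605 and 568 in ADM. The collagenase gene Mmp13 fell from 126, 111 and 128 FPKM to 11.6, 14.2 and 12.4 (-3.16 ± 0.083), and for its group of proteases and inhibitors 8 members rose and 20 fell, while 0 of 28 missed the threshold. Adam12, a protease of early fat cells, and Mmp19 rose (2.33 ± 0.067 and 1.57 ± 0.042). Mfap4, a microfibril protein, had 24.1, 41.1 and 39.2 FPKM in control and 0.594, 0.934 and 0.95 in ADM (-4.26 ± 0.2), with control replicate 1 under its fellows, and Postn, periostin, rose by 1.58 ± 0.037.

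Genes of other stromal cell fates were mostly lower. Of the osteoblast genes 3 members rose and 12 fell, while 2 of 17 missed the threshold, and of the tendon and cartilage genes 2 members rose and 9 fell, while 4 of 15 missed the threshold. The shares changed were 88.2% and 73.3%, against 61.6% of all tested genes. Tnmd (ENSMUSG00000031250.8, chromosome X, 133850980 to 133865577), the tendon protein tenomodulin, stood at 68.3, 77.4 and 76.3 FPKM in control and at 2.70, 2.88 and 2.81 in ADM (-4.30 ± 0.061), and Scx, the tendon regulator, at 11.9, 9.20 and 11.8 and 1.04, 0.839 and 0.929 (-2.62 ± 0.11). Col2a1, the collagen of cartilage, fell (-2.30 ± 0.057), and its regulator gene Sox9 fell less (-0.66 ± 0.071). Spp1, osteopontin, went from 782, 716 and 757 FPKM to 349, 358 and 336 (-1.11 ± 0.045), Tnfrsf11b, the decoy receptor that restrains osteoclasts, from 16.1, 13.7 and 15.1 to 3.07, 3.68 and 2.59 (-1.96 ± 0.11). Bglap and Bglap2, near-identical copies, were both lower, Bglap2 at 5.72, 6.37 and 5.74 FPKM in control and 0.476, 0 and 0.335 in ADM. The osteoblast regulator Runx2 changed by -0.22 ± 0.08 (adjusted p = 0.0452).

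Contractile and cytoskeletal genes mostly fell. Of the myofibroblast list 7 members rose and 18 fell, while 2 of 27 missed the threshold, and of the actin and tubulin list 0 members rose and 23 fell, while 4 of 27 missed the threshold. Acta2 stood at 733, 713 and 736 FPKM in control and at 168, 208 and 227 in ADM (-1.86 ± 0.1), and Tagln, which binds actin filaments, at 119, 121 and 119 and 34.7, 38.3 and 49.1 (-1.55 ± 0.11). Actg2, Tpm1 and Cnn1 fell (-2.49 ± 0.079, -1.01 ± 0.043 and -1.06 ± 0.073). Mylk, the kinase that starts contraction, and Lmod1 rose (1.58 ± 0.063 and 1.17 ± 0.088). Vim, the filament of mesenchymal cells, fell (-0.44 ± 0.063), as did the nuclear lamin gene Lmnb1 (-2.399 ± 0.049).

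Stromal and niche genes were divided. Of the marrow stromal and niche genes 9 members rose and 8 fell, while 3 of 20 missed the threshold, with a median of 0.05. Kitl (ENSMUSG00000019966.18, chromosome 10, 100015630 to 100100416), stem cell factor, stood at 26.0, 27.7 and 26.5 FPKM in control and at 97.3, 102 and 89.2 in ADM (1.81 ± 0.057, adjusted p = 2.7e-07), and Cxcl12 at 58.6, 52.3 and 52.7 and 103, 109.8 and 104 (0.94 ± 0.054). Angpt1, a growth factor for vessels and stem cells, rose by 1.195 ± 0.061, and the receptor gene Pdgfra by 0.95 ± 0.041. Pdgfrb, Cdh11 and the surface marker gene Ly6a fell (-0.56 ± 0.033, -0.77 ± 0.034 and -2.07 ± 0.22). Prrx1, a mesenchymal factor, did not pass (-0.29 ± 0.2). Of genes that mark preadipocytes or hold back fat formation 6 members rose and 10 fell, while 6 of 22 missed the threshold. The 72.7% that changed compares with 61.6% of all tested genes.

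Signalling genes changed about as often as genes in general, of which 61.6% changed, 28.3% rising and 33.3% falling. The split into rises and falls differed between the signalling lists. Of TGF-beta and BMP genes 7 members rose and 18 fell, while 12 of 37 missed the threshold, of Wnt genes 12 members rose and 9 fell, while 9 of 30 missed the threshold and of Notch genes 7 members rose and 4 fell, while 5 of 16 missed the threshold, which is 67.6%, 70% and 68.8% changed. Bmp4 fell from 36.1, 38.8 and 38.1 FPKM to 2.22, 5.86 and 2.41 (-3.19 ± 0.27), with ADM replicate 2 above its fellows, and Fst, an inhibitor of activin, rose from 6.96, 9.30 and 6.33 to 47.1, 38.9 and 41.8 (2.37 ± 0.13). The Wnt-enhancing genes Rspo2 and Rspo3 fell (-2.59 ± 0.042 and -1.42 ± 0.044), and the secreted inhibitor genes Sfrp2 and Dkk3 fell too (-2.20 ± 0.1 and -1.43 ± 0.047), while the receptor genes Fzd4 and Lrp5 rose (1.84 ± 0.076 and 1.14 ± 0.085). For fibroblast and platelet growth factors with their feedback genes, 8 members rose and 15 fell, while 9 of 32 missed the threshold (71.9% changed). Hbegf and Fgf7 fell (-1.99 ± 0.15 and -1.602 ± 0.061), while the receptor gene Egfr rose from 12.7, 14.2 and 13.39 FPKM to 62.8, 65.9 and 63.5 (2.17 ± 0.052). For AP-1 and immediate early factors, 7 members rose and 9 fell, while 10 of 26 missed the threshold, so that 61.5% changed, with Fosl1 lower (-1.88 ± 0.063) and Fos higher (1.39 ± 0.12).

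Nuclear receptor and sterol genes had no common direction. For nuclear receptors, 7 members rose and 9 fell, while 8 of 24 missed the threshold, and the 66.7% that changed is near the 61.6% of all tested genes. Vdr, the vitamin D receptor, fell (-1.36 ± 0.073), and Rxra, the partner of PPAR gamma, rose (1.08 ± 0.075). For cholesterol genes, 12 members rose and 13 fell, while 8 of 33 missed the threshold (75.8% changed), with a median of -0.08. Abca1, which exports cholesterol, rose by 1.92 ± 0.052, Srebf2, the sterol regulator, fell (-0.83 ± 0.063), and Crabp2, a retinoic acid carrier, fell from 25.8, 23.8 and 28.4 FPKM to 0.522, 0.845 and 0.576 (-4.04 ± 0.099).

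The same change of medium was also made in the presence of DHT, in 6 libraries that share none with those above, and was fitted with them in a model of 12 libraries. There 5626 of 11152 genes changed (50.4%), 23.3% as higher and 27.2% as lower in ADM+DHT. Of 3103 genes that rose without DHT and had values there, 2041 (65.8%) also passed as higher in ADM+DHT than in DHT and 30 passed as lower. Of 3661 that fell, 2555 (69.8%) passed as lower and 79 as higher. The difference of both effects passed at 2835 genes (25.4%). The median of the risen genes was 0.56 without DHT, the values that chose them, and 0.31 with it, and that of the fallen genes -0.51 and -0.32.

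Mitosis genes were lower with DHT as well: 59 of 59 passed as lower, against 27.2% of all genes tested there, with a median of -1.96, and the difference of the effects passed as higher at 6, against 12.5% of all. Fat oxidation genes had a smaller rise with DHT, with a median of 0.64 against 1.22 over the 32 members with values, and the difference passed as lower at 23, against 12.9% of all. Interferon-stimulated genes had a median of -0.35 with DHT and -0.83 without it, and the difference passed as higher at 30 of 46, against 12.5% of all. Glucocorticoid targets had medians of 1.34 and 2.05, and the difference passed as lower at 22 of 35, against 12.9% of all.

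**Figure D5:**
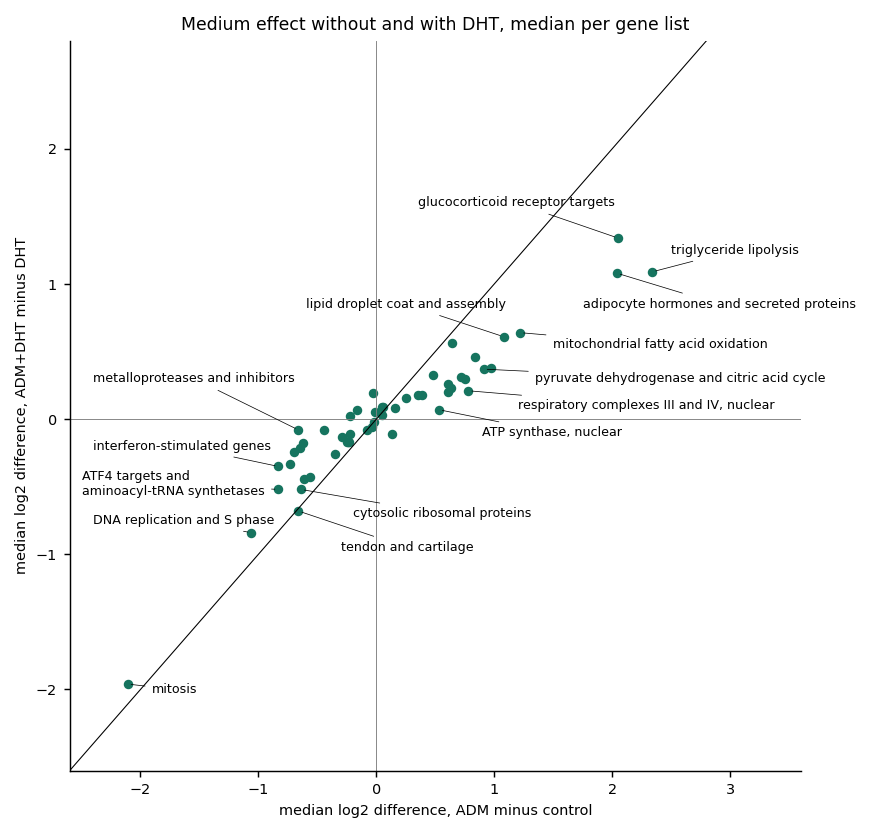
Median log2 difference of each gene list for ADM minus control (horizontal axis) and for ADM+DHT minus DHT (vertical axis), over lists with at least 5 members in all libraries; the diagonal marks equal medians. Most lists keep their sign and lie nearer to 0 with DHT. Several lie close to the diagonal, among them the mitosis, tendon, ribosomal protein and cholesterol lists.

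In 3 of 12 single genes the difference of the effects did not pass. Pparg stood at 5.74, 5.20 and 6.21 FPKM in DHT and at 17.7, 17.8 and 16.2 in ADM+DHT, a medium effect of 1.44 ± 0.074, and this differed from the effect without DHT by -0.20 ± 0.1 (adjusted p = 0.187). With a pseudocount of 5 it passed (-0.26, adjusted p = 0.0259). For Mki67 the difference was -0.30 ± 0.16 (adjusted p = 0.205), and it passed without ADM+DHT replicate 1 (-0.43, adjusted p = 0.0455). For Cxcl12, at 86.3, 75.5 and 73.5 FPKM in DHT and 164, 164 and 185 in ADM+DHT, it was 0.17 ± 0.098 (adjusted p = 0.233).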

How the data were processed

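Polyadenylated RNA of M2-10B4 cells was sequenced from stranded libraries as paired reads on an Illumina HiSeq instrument, per the labels' protocols. FastQC, cutadapt, HISAT2, StringTie and the build GRCm38 are named in the submitters' processing notes, without versions or roles. The authors deposited FPKM per gene and library. The authors' tables also hold log2 group means, log2 differences, fold changes as linear ratios, and p-values and q-values of a test that is not given in the sources used here. These served only for comparison: 2914 genes higher and 3435 lower in ADM had a q-value under 0.05 in the authors' deposited table. No counts were used and depth is unknown: the steps between low FPKM gave whole reads (within 0.05) for at most 28.3% of 96 to 108 low genes in any library.

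FPKM were taken as log2(FPKM + 1), genes with a mean of at least 1 FPKM in either group were kept, and limma 3.58.1 (R 4.3.3) with a trended prior was fitted to 6 libraries, with 4 residual degrees of freedom and Benjamini-Hochberg adjustment. With 3 against 3 libraries an exact permutation test cannot go below 0.1, so none is given. The effect of the medium with DHT and the interaction came from a fit of 12 libraries with 8 residual degrees of freedom. The script was tested on simulated data in which far fewer genes changed than here. It recovered 73.3%, 86.3% and 100% of log2 differences of 0.585, 1 and 2 in size, and 6.21% of its calls were false. Tables were handled with pandas 2.3.3 in Python 3.11.15. Replicate numbers were not used as pairs in the main fit. Promoters came from RefSeq windows on GRCm38.p6.

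The members and the 54 gene lists were chosen with earlier results of these data known. Genes were named by rule: the 20 largest rises and 20 largest falls without overlap and at least 5 FPKM, up to 4 members with the largest change per list, both members of 22 pairs of relatives, the 10 most abundant genes of each group, and 12 genes for the interaction. Other list members were named for their roles after their values were seen. Alternatives were the pseudocount, the filter, the scaling, the spread, the replicate block and leaving out each library. A few genes of the lists are counted in them but not reported here by name.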

Additional observations from a re-analysis of the deposited data

Results flagged for a closer look

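The effect of the medium differed between cells without and with DHT in 9 of the 12 genes examined for it, by the interaction term of limma's fit to 12 libraries with Benjamini-Hochberg adjustment over 11152 genes, of which 25.4% passed. Values are the effect with DHT minus that without, on the log2(FPKM + 1) scale.

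Fat cell genes had smaller rises with DHT. Fabp4 stood at 3.06, 2.89 and 2.59 FPKM in DHT and at 249.7, 256 and 260.0 in ADM+DHT, and the difference of the effects was -1.25 ± 0.066 (adjusted p = 1.52e-07). For Adipoq it was -1.57 ± 0.11 (adjusted p = 1.95e-06), with 165, 180.3 and 188 FPKM in ADM+DHT. For Lpl, whose level in DHT was 0.601, 0.63 and 0.533 FPKM, it was -0.91 ± 0.071 (adjusted p = 3.34e-06), but -0.14 (adjusted p = 0.342) with a pseudocount of 0.1. In all 3 genes the libraries of ADM+DHT lay above those of DHT and below those of ADM.

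Cebpa stood at 13.7, 14.4 and 14.7 FPKM in DHT and at 8.39, 36.0 and 8.31 in ADM+DHT, so that ADM+DHT replicate 2 lay apart from its fellows and the groups overlapped. The difference of the effects was -2.10 ± 0.68 (adjusted p = 0.0419). It was -2.76 (adjusted p = 0.00106) without that library, and it missed the threshold in 9 of the 12 fits that left out 1 library, with adjusted p of up to 0.0971.

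The remaining 5 genes follow with their levels in DHT. Fkbp5 stood at 49.9, 50.8 and 47.0 FPKM in DHT and at 180.1, 188 and 182 in ADM+DHT, a difference of -2.59 ± 0.07 (adjusted p = 1.01e-09). Dio2 stood at 2.28, 2.19 and 2.61 FPKM in DHT and at 0.147, 0.212 and 0.21 in ADM+DHT, a difference of 3.87 ± 0.093 (adjusted p = 4.64e-10). With Dio2 so near 0, the size of its difference depends on the pseudocount: it was 3.20 with 0.1 and 3.29 with 5. Ldha stood at 62.7, 63.9 and 64.5 FPKM in DHT and the difference was 0.45 ± 0.092 (adjusted p = 0.00362). Col4a1 stood at 219, 224 and 214 FPKM in DHT and the difference was -1.02 ± 0.056 (adjusted p = 2.06e-07). Fn1 stood at 879, 814 and 861 FPKM in DHT and at 304, 287 and 301 in ADM+DHT, and its difference was 1.22 ± 0.047 (adjusted p = 1.7e-08).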

How the results depend on the processing

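Over 244 named genes, 4122 of 4144 values under alternatives kept their direction and their side of the threshold. The rest follow. Under quantile normalization mt-Nd2, mt-Cytb, mt-Atp6 and Fth1 turned to -0.00, -0.09, -0.03 and -0.20, and mt-Atp8, mt-Co1 and mt-Nd5 to 0.00. Lama4, which did not pass, turned to 0.02 with scaling without mitochondrially encoded genes and with a median shift, and ranged from -0.04 (without control replicate 3) to 0.01 (without control replicate 1) when a library was left out, with 0.00 without ADM replicate 2. Ccnd3 lost its call in 3 fits that left out a library, and the Gpat4 log2 difference (0.30, adjusted p = 0.093, on the TPM scale) in 4 and under the replicate block (0.38, adjusted p = 0.0646). The Scd1 log2 difference passed as lower on the TPM scale (-0.25, adjusted p = 0.0172) and without control replicate 2. The causes were not tested. A pseudocount of 5 shrinks low genes by construction and left 901 rises and 841 falls of 1.5-fold or more, 474 and 402 with DHT, and 204 and 321 for the interaction. A minimum of 5 FPKM tests fewer genes, and members that changed became 3 for brown and beige fat, 7 for tendon and cartilage, 9 for preadipocyte genes, 7 for Notch, 1 for skeletal muscle, 1 for macrophage and 0 for endothelial markers. With the spread of 12 libraries 1 endothelial marker changed. Leaving out each library gave 2872 to 3014 higher and 3353 to 3485 lower genes. On the TPM scale 2674 were higher and 4266 lower, and with scaling without mitochondrially encoded genes 3305 and 3433. Of 240 values of the difference between the medium effects with and without DHT, 228 kept their direction and side of the threshold. Correlations of deviations were 0.026, -0.051 and 0.127 between libraries of equal replicate number and -0.109 to 0.081 between unequal ones. Such correlations cannot settle whether equal numbers were pairs. The fit with the replicate block gave 3093 higher and 3619 lower genes. FPKM hold no counting error, so the precision of low genes is unknown.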
